A study of Mus musculus with 4 samples.

Results

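The genes described here encode proteins that cells secrete under stress: GDF15, the activin subunits INHBA and INHBE, FGF21, the stanniocalcins STC1 and STC2, adrenomedullin (ADM) and vascular endothelial growth factor A, which the array names VEGF. They were chosen by gene name, as all probes that are not controls and carry one of these names, which gave 12 of the 41000 probes of the array and 8 of the 17871 named genes tested. The RNA came from H460, a cell line established from a human lung carcinoma. One group was treated for 4 h with 250 µM farnesol, an isoprenoid alcohol, and the other with its vehicle, dimethyl sulphoxide. The source names of the farnesol RNA begin with 4H and those of the vehicle RNA do not. These names therefore do not show that the vehicle was given for the same time. Duplicate experiments, called replicate 1 and replicate 2 here, each gave RNA of farnesol-treated cells and of the vehicle-treated cells matched to them. Each pair was hybridised on 2 two-colour arrays with the dyes exchanged, so the 4 arrays hold 2 replicates. The organism label of the samples gives the mouse, while the protocols describe a human line and the gene names on the array are human.

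Cells that sense damage, hypoxia, nutrient shortage or misfolded protein change not only their own metabolism but also what they send out. The factor ATF4, translated when eIF2alpha is phosphorylated, and its target CHOP are known to activate GDF15, FGF21, INHBE and STC2, EGR1 is a known inducer of GDF15, and hypoxia-inducible factors are known to activate ADM, VEGF and the stanniocalcins. GDF15 and FGF21 act as hormones on appetite and metabolism, activins act on neighbouring cells through SMAD signalling, and ADM and VEGF act on blood vessels. These roles are background, and none was tested here.

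GDF15 and ADM were the members with the largest differences, 7.95-fold and 5.42-fold higher with farnesol. INHBA was 2.07-fold, STC2 1.65-fold and VEGF 1.49-fold higher, each by its brightest probe. INHBE and STC1 had mean ratios of 1.08-fold and FGF21 of 1.05-fold. The replicates differed in size: GDF15, INHBA, STC2 and VEGF had the larger ratio in replicate 1, and ADM in replicate 2. By limma's moderated test with Benjamini-Hochberg adjustment over all 28594 features, 0 of the 8 genes passed the threshold of 0.05, where 3 features in all passed, each of them higher (0.0105%). At an unadjusted p under 0.05 by the same test, 4 of the 8 were higher (GDF15, ADM, INHBA and VEGF), against 3.71% of all features, and 0 were lower, against 10.8%. A model of the 4 arrays with the replicate as a random block, added after the data were seen, called the same 4 genes (limma adjusted p from 0.00396 to 0.0313). It called 2894 of the 28594 features. This model counts the dye-swapped arrays of a replicate as partly independent, although they hold the same RNA, so its p-values do not rest on more replicates. A rule of size asked for a 2-fold difference or more in each replicate and the same sign on all 4 arrays. GDF15 and ADM, 2 of the 8 genes, met it upward, as did 0.657% of all features. With a normexp offset of 0 or with the scanner's processed signals, INHBA met it too, which made 3 of the 8. Of all 28594 features 188 met it upward and 68 downward (0.238%), and none of the 8 genes was among those 68. When arrays were only centred on their median, the split was 155 higher and 136 lower. The genes were chosen with results of these data known, so these counts describe them and single out no property of the list.

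**Figure D1:**
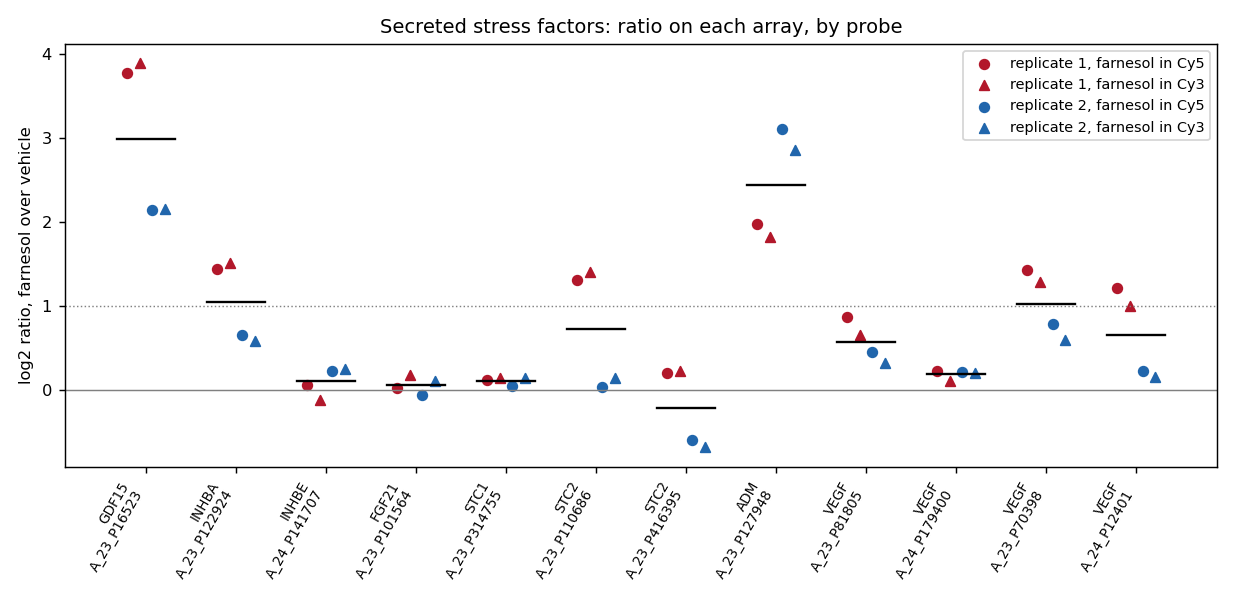
Log2 ratio of farnesol over vehicle (y axis) for the 12 probes (x axis) on each of the 4 arrays; colour marks the replicate, shape the dye of the farnesol RNA, the black line the mean of the 2 replicates, and the dotted line 2-fold. GDF15 sits between 2.14 and 3.89 and ADM between 1.82 and 3.10, while the dye-swapped arrays of each replicate lie close together.

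Intensities below are normalised, in arbitrary units, and one probe is compared only with itself. The lowest intensity at which the scanner software called a probe well above background lay between 59 and 70 per channel and array. All 12 probes were well above background in both channels of all 4 arrays, and none was saturated or outlying. Between 82.4% and 92.9% of all probes were well above background in the farnesol channel and between 88.7% and 91.1% in the vehicle channel. Across features, which are not independent, r between dye-swapped arrays was 0.943 (replicate 1) and 0.942 (replicate 2), and r between arrays of unlike replicates was 0.633 to 0.684. Having only 2 replicates limits the precision throughout. All 9 epithelial markers on the array, among them the keratins KRT8 and KRT18, were well above background in all 8 channels. So were 7 of 8 leukocyte, 6 of 8 fibroblast and 4 of 7 endothelial markers, at a median intensity percentile of 71.4, 32.4 and 36.8, against 91.4 for the epithelial ones. The summed intensity of the leukocyte markers was 2883 to 3650 in the farnesol channels and 2386 to 2875 in the vehicle channels. That of the fibroblast markers, mostly from THY1, was 4411 to 8973 with farnesol and 4068 to 5934 with vehicle. That of the endothelial markers was 860 to 1036 with farnesol and 877 to 1009 with vehicle. That of the epithelial markers was 39057 to 44496 with farnesol and 47858 to 48799 with vehicle. The ranges of the epithelial markers (lower with farnesol) and of the leukocyte markers (higher with farnesol) did not overlap. For the leukocyte markers the ranges parted only by 2883 against 2875. Among these LCP1 had the largest mean log2 ratio, 0.57 (1.03 in replicate 1, 0.10 in replicate 2), followed by CD14 with 0.15. Of the 9 epithelial markers 5 were lower and 2 higher in both replicates, with mean log2 ratios from -0.65 (KRT19) to 0.32 (CLDN4). Their sum rests mostly on KRT18, KRT8, KRT10 and KRT19, with mean log2 intensities of 14.34, 13.24, 12.77 and 12.49. THY1 had a mean log2 intensity of 12.17, against 7.51 for COL1A1, the next brightest fibroblast marker. Its mean log2 ratio of 0.46 came mostly from replicate 2 (0.84, against 0.08 in replicate 1). The fibroblast sums therefore describe THY1 more than the list. How often such ranges part for other sets of genes was not tested. The part of such markers in the results below was not tested. In bulk RNA, a change in every cell and a change in some of the cells cannot be told apart.

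GDF15, a distant member of the TGF-beta superfamily whose protein signals through the brainstem receptor GFRAL, was read by 1 probe, A_23_P16523. In replicate 1 its intensity was 38936 and 44862 with farnesol, against 2850 and 3026 with vehicle. In replicate 2 it was 13356 and 12848 with farnesol, against 3026 and 2872 with vehicle. The vehicle values of both replicates thus lay in the same narrow band, every farnesol value lay above them, and the replicates parted in the farnesol channel. The log2 ratio was 3.83 in replicate 1 (14.2-fold) and 2.15 in replicate 2 (4.44-fold), with a mean of 2.99 ± 1.19 (SD, n = 2; limma adjusted p = 0.221). The dye-swapped arrays differed by 0.12 in replicate 1 and by 0.02 in replicate 2, far less than the 1.68 between the replicates. Of all features 0.161% had a larger gap between replicates. Among the 188 features that met the rule of size upward, 23, GDF15 included, had a gap at least as large in the same direction. By mean ratio GDF15 ranked 44 from the top of the 28594 features.

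INHBA encodes the beta A subunit, which forms activin A as a dimer, and its probe was A_23_P122924. Its intensity in replicate 1 was 294 and 274 with farnesol, against 108 and 96 with vehicle, and in replicate 2 it was 179 and 169 with farnesol, against 114 and 113 with vehicle. All 4 farnesol values lay above all 4 vehicle values, and the vehicle values lay within a factor of 2 of the lowest intensities called well above background. The log2 ratio was 1.48 in replicate 1 and 0.62 in replicate 2, the second of them under 2-fold (mean 1.05 ± 0.61, SD, n = 2; limma adjusted p = 0.293). The offset used in background correction shrinks such dim ratios, and the scanner software's own log2 ratios averaged 1.62 and were above 2-fold on each of the 4 arrays.

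INHBE, the beta E subunit known from liver as a target of ATF4 and CHOP, gave 150 and 141 with farnesol in replicate 1, against 144 and 152 with vehicle. In replicate 2 its probe gave 202 and 245 with farnesol, against 173 and 206 with vehicle. The conditions overlapped, and 3 of 4 arrays had a ratio above 0. The mean log2 ratio was 0.11 ± 0.19 (SD, n = 2; limma adjusted p = 0.675), the replicates being at -0.02 and 0.24.

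FGF21 is an endocrine fibroblast growth factor best known from the liver. Its intensities were 97 and 116 with farnesol in replicate 1, against 95 and 103 with vehicle, and 104 and 112 with farnesol in replicate 2, against 108 and 104 with vehicle. These values overlapped and lay within a factor of 2 of the lowest intensities called well above background. The mean log2 ratio was 0.07 ± 0.05 (SD, n = 2; limma adjusted p = 0.675), and signal this close to background limits the precision of the ratio.

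The stanniocalcins are glycoprotein hormones named after a gland of bony fish, and in mammals they act mostly near the cells that make them. STC1 gave intensities of 236 and 283 with farnesol in replicate 1, against 217 and 256 with vehicle, and 241 and 271 with farnesol in replicate 2, against 233 and 245 with vehicle. The ranges of both conditions overlapped, while the log2 ratio within each array was above 0 on 4 of 4 arrays, but small, with a mean log2 value of 0.11 ± 0.02 (SD, n = 2; limma adjusted p = 0.497) and 0.02 under median centring. Higher values on all 4 arrays were found for 20.9% of all features, and for 6 of the 8 genes here.

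STC2 was read by a pair of probes that disagreed. The brighter one, A_23_P110686, gave 630 and 570 with farnesol in replicate 1, against 253 and 215 with vehicle. In replicate 2 it gave 265 and 219 with farnesol, against 258 and 198 with vehicle. The difference was thus seen in replicate 1, with a log2 ratio of 1.36, and hardly in replicate 2, with 0.09 (mean 0.73 ± 0.90, SD, n = 2; limma adjusted p = 0.514). The other probe, A_23_P416395, designed from another transcript record, gave 221 and 178 with farnesol in replicate 1, against 192 and 152 with vehicle. In replicate 2 it gave 112 and 93 with farnesol, against 169 and 148 with vehicle. Its log2 ratio was 0.22 in replicate 1 and -0.64 in replicate 2 (mean -0.21 ± 0.60, SD, n = 2). The farnesol values of replicate 2 lay within a factor of 2 of the lowest intensities called well above background. The scanner software's own log2 ratios of this probe in replicate 2 were -1.095 and -1.192, more than 2-fold lower with farnesol. Both probes had the higher ratio in replicate 1, by 1.27 for the brighter one, but they differed in sign of the mean, and the mean of both as a gene value was 0.26 (limma adjusted p = 0.756). Which transcripts each probe reads was not tested.

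**Figure D2:**
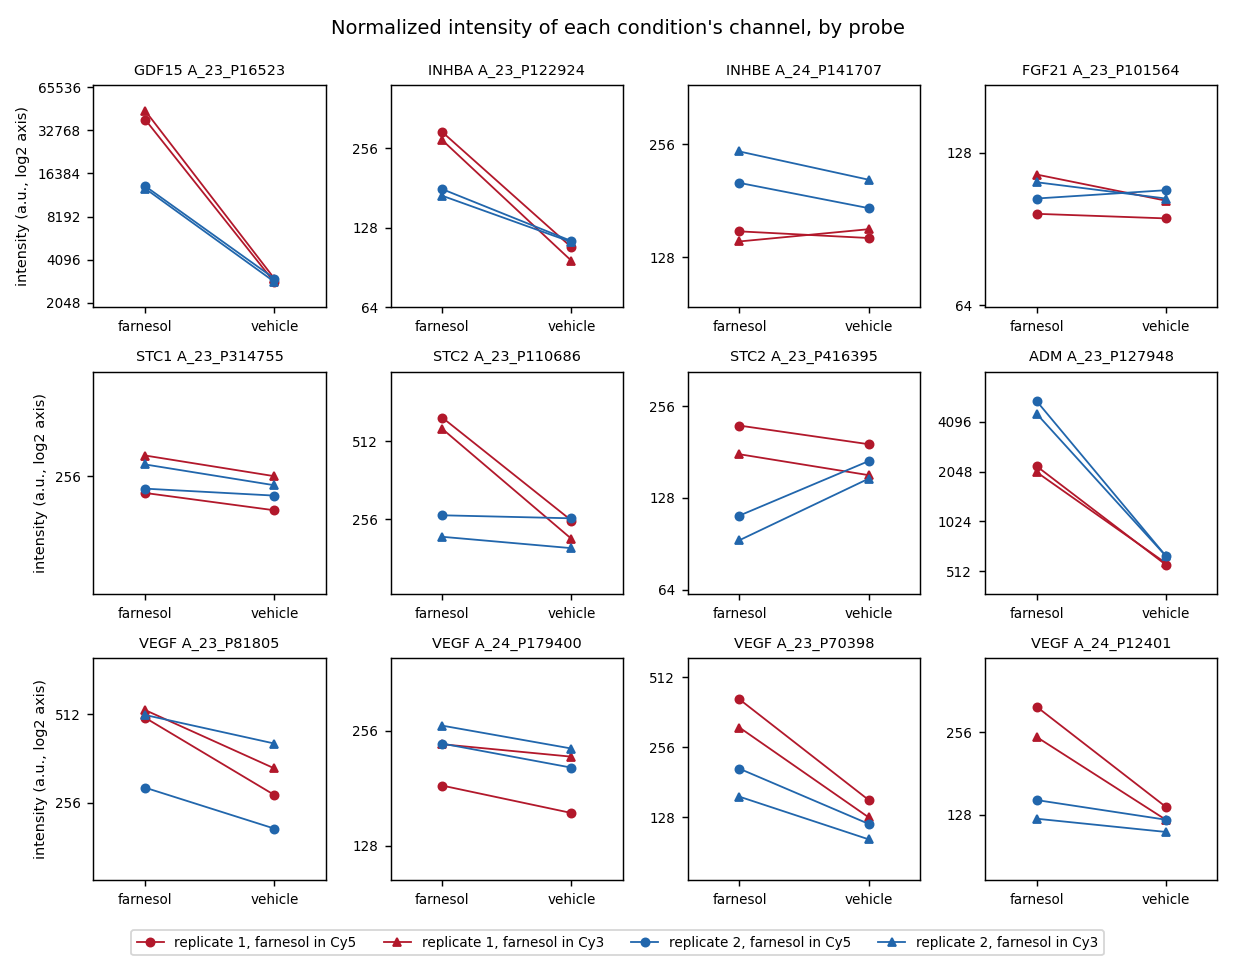
Normalised intensity (y axis, arbitrary units, log2 axis with its own range in each panel) in the farnesol and the vehicle channel of each array, 1 panel per probe; a line joins the channels of 1 array. For GDF15 the vehicle values lie between 2850 and 3026 on all arrays, while the farnesol values lie at 38936 and 44862 in replicate 1 and at 13356 and 12848 in replicate 2.

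ADM encodes adrenomedullin, a vasodilator peptide that signals through the receptor CALCRL paired with a RAMP protein. Its probe, A_23_P127948, gave 2207 and 2032 with farnesol in replicate 1, against 561 and 574 with vehicle. In replicate 2 it gave 5456 and 4577 with farnesol, against 635 and 634 with vehicle. Every farnesol value was above every vehicle value, and here the higher farnesol values were those of replicate 2. The log2 ratio was 1.90 in replicate 1 (3.73-fold) and 2.98 in replicate 2 (7.88-fold), with a mean of 2.44 ± 0.76 (SD, n = 2; limma adjusted p = 0.199). ADM ranked 65 from the top of all features by mean ratio. The gap of 1.08 between its replicates exceeded the 0.15 and 0.25 between its dye-swapped arrays.

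VEGF, the vascular growth factor that drives endothelial cells to divide and sprout, had 4 probes, all with a positive mean ratio but of unequal size. The brightest, A_23_P81805, gave 498 and 529 with farnesol in replicate 1, against 272 and 335 with vehicle, and 288 and 509 with farnesol in replicate 2, against 209 and 407 with vehicle. Within each array the farnesol channel was the brighter one, although the ranges over all arrays overlapped. Its log2 ratio was 0.76 in replicate 1 and 0.39 in replicate 2 (mean 0.58 ± 0.26, SD, n = 2; limma adjusted p = 0.262). A_23_P70398 had the largest mean, 1.03 ± 0.47 (SD, n = 2), with 411 and 311 with farnesol in replicate 1, against 152 and 128 with vehicle, and 207 and 157 with farnesol in replicate 2, against 120 and 103 with vehicle. For A_23_P70398 the scanner software's own log2 ratios averaged 1.46 and were above 2-fold on each of the 4 arrays. A_24_P12401 had a log2 ratio of 1.11 in replicate 1 and 0.20 in replicate 2. A_24_P179400 had 0.17 in replicate 1 and 0.21 in replicate 2, the smallest mean of the 4 (0.19). Of the 4 probes 3 therefore had the larger ratio in replicate 1, and A_24_P179400 showed little difference in either.

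**Figure D3:**
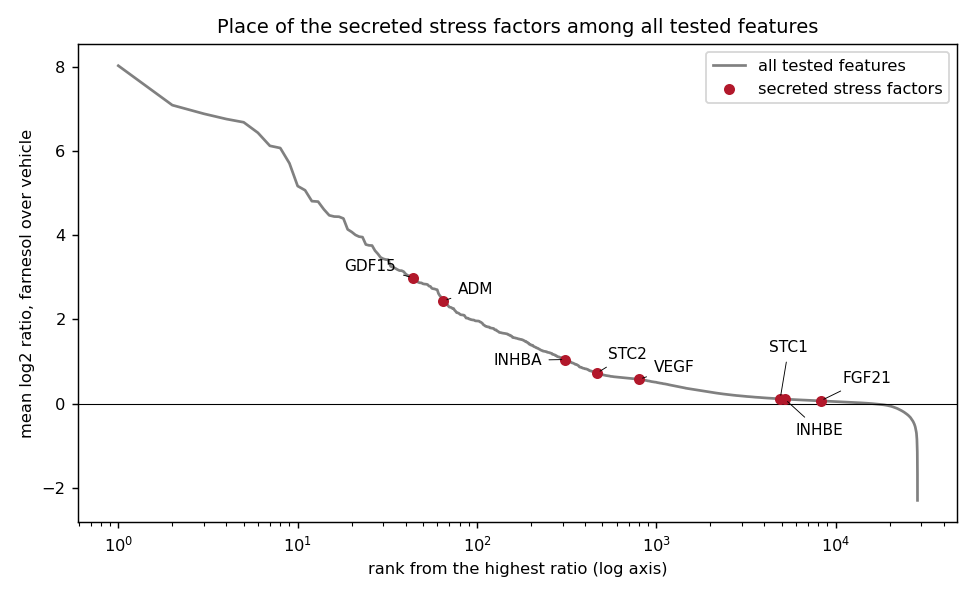
Mean log2 ratio of farnesol over vehicle (y axis) against rank from the highest (x axis, log scale) for all 28594 tested features (grey line), with the 8 genes as red points. GDF15 at rank 44 and ADM at rank 65 lie on the steep part of the curve, INHBA, STC2 and VEGF at ranks 311, 467 and 802 on its shoulder, and STC1, INHBE and FGF21 at ranks 4904, 5208 and 8235 on the flat part.

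Over the 8 genes the median log2 ratio was 0.65, with 1.06 in replicate 1 and 0.31 in replicate 2, beside 0.01 over all features. Of the 8 genes 7 were above 0 in both replicates and none was below 0 in both, and 35.4% of all features were above 0 in both. Below 0 in both replicates were 8617 of the 28594 features.

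**Figure D4:**
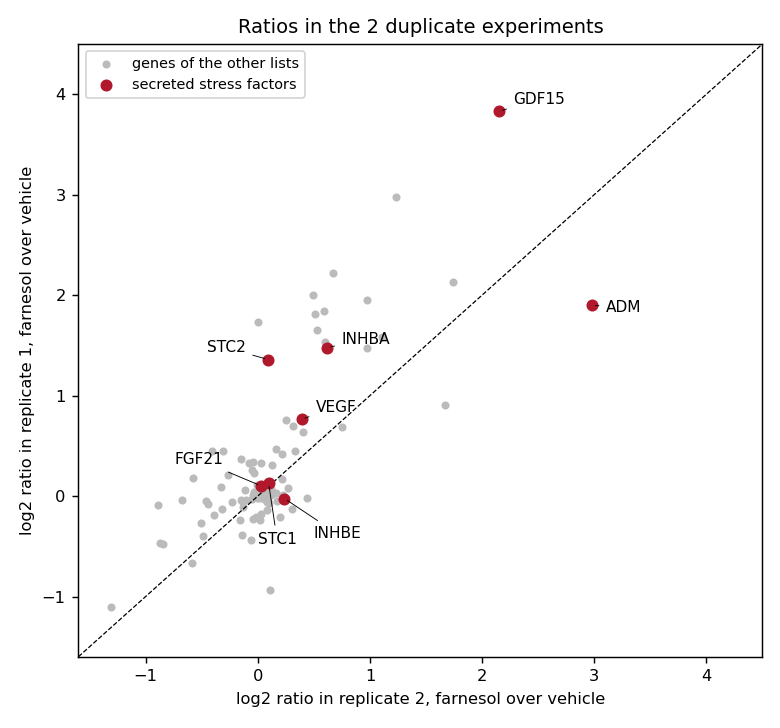
Log2 ratio of farnesol over vehicle in replicate 1 (y axis) against replicate 2 (x axis) for the 8 genes (red) and the genes of 6 other lists (grey); the dashed line marks equal values, and 5 list genes with higher values lie outside the axes. GDF15, STC2, INHBA and VEGF lie above the line, and ADM lies below it.

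Of 21 receptor genes listed, 18 were on the array by name and 16 were tested, and their median log2 ratio was 0.06 (0.03 in replicate 1, 0.06 in replicate 2). GFRAL, CALCRL, RAMP2 and KLB, which encodes beta-klotho, were not among the 16 and are not analysed here. Limma called 0 of the 16, and at an unadjusted p under 0.05 2 were higher and 1 lower, against 3.71% and 10.8% of all features. FGFR1, a receptor that FGF21 uses together with beta-klotho, had 0.39 ± 0.08, and ACVR1B, the type I activin receptor, had 0.19 ± 0.03 (SD, n = 2). FGFR3, a further FGF receptor, had -0.20 ± 0.06, and ACVR2B, a type II activin receptor, had 0.12 ± 0.16 (SD, n = 2). RET, the kinase that pairs with GFRAL, had -0.01 and KDR, the main VEGF receptor, 0.00, and no tested receptor reached 2-fold.

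Among 8 genes of other activin and inhibin subunits and antagonists, BAMBI had the largest ratio, 1.29 ± 0.54 (SD, n = 2). BAMBI is a pseudoreceptor that dampens TGF-beta family signals, and its ratio was 0.91 in replicate 1 and 1.67 in replicate 2 (limma adjusted p = 0.229), so that, as for ADM, replicate 2 was the higher one. INHBC, the beta C subunit, had 0.17 ± 0.13, FST, the activin-binding protein follistatin, 0.11 ± 0.04 and TGFBR3, a co-receptor of inhibin, -0.04 ± 0.01 (SD, n = 2). The list's median was 0.03 (0.02 in replicate 1, 0.08 in replicate 2), limma called 0 of the 8, and BAMBI was the 1 member with an unadjusted p under 0.05. At that threshold 3.71% of all features were higher and 10.8% lower.

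Of 23 related ligands (other TGF-beta family members, fibroblast growth factors, the VEGF family and calcitonin peptides), none was called by limma and none reached 2-fold, and their median was 0.04 (0.01 in replicate 1, 0.08 in replicate 2). At an unadjusted p under 0.05 by limma, 3 were higher and 0 lower, against 3.71% and 10.8% of all features. The 3 ligands were FIGF, also known as VEGFD (0.52 ± 0.17), VEGFC (0.51 ± 0.27), both growth factors of lymphatic vessels, and BMP2, a bone morphogenetic protein (0.32 ± 0.14). VEGFB had -0.25 ± 0.26 and ADM2, the closest relative of ADM, 0.05 (SD, n = 2).

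Transcription factors of stress responses, each by its brightest probe, ranged from ratios near 1 to the highest ratio on the array, with a median log2 ratio of 0.87 (1.59 in replicate 1, 0.67 in replicate 2). EGR1, a zinc finger factor of the early growth response, had 8.03 ± 0.08 and JUN, a subunit of AP-1, 6.69 ± 0.07, and limma called these 2 of the 15 tested (adjusted p = 0.0340 for both). Of all features limma called 0.0105%. The rule of size was met upward by 6 of the 15 and downward by 0, against 0.657% and 0.238% of all features. At an unadjusted p under 0.05 by limma 7 were higher and 0 lower, against 3.71% and 10.8% of all features. ATF3, a stress-induced ATF family repressor, had 7.09 ± 0.42, FOS, the partner of JUN, 6.76 ± 0.30, and DDIT3, which encodes CHOP, 5.17 ± 0.57 (SD, n = 2). The messages of ATF4 (0.15 ± 0.27) and HIF1A (0.07 ± 0.53) showed little difference (SD, n = 2), and the proteins of both are controlled largely after transcription. HIF1A had 0.45 in replicate 1 and -0.31 in replicate 2.

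Targets of these factors that are not secreted gave mixed values. Of 21 tested ATF4 and CHOP targets, 2 met the rule of size upward and 1 downward, against 0.657% and 0.238% of all features. Their median log2 ratio was 0.11, but 0.26 in replicate 1 and -0.01 in replicate 2, so its sign rests on replicate 1. DDIT4, an inhibitor of mTORC1, had 2.10 ± 1.23 and PPP1R15A, the phosphatase subunit GADD34, 1.94 ± 0.27. TRIB3, a pseudokinase, had 1.24 ± 1.07 and SESN2, a leucine sensor, 1.22 ± 0.36, while PSAT1, of serine synthesis, had -1.21 ± 0.14 (SD, n = 2). DDIT4, with 2.98 in replicate 1 and 1.23 in replicate 2, and TRIB3, with 2.00 in replicate 1 and 0.49 in replicate 2, had the higher ratio in replicate 1, as GDF15 did. PPP1R15A and SESN2 had it too, as did 141 of the 188 features that met the rule of size upward (75.0%), against 48.8% of all features.

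Of 21 tested hypoxia targets none met the rule of size, 5 were above 0 and 10 below 0 in both replicates, and the median was -0.09. Over all 28594 features 35.4% were above 0 in both replicates and 8617 features were below 0 in both. ADFP, a lipid droplet protein, had 1.46 ± 0.69 and BHLHB2, a transcriptional repressor, 1.22 ± 0.89. The glycolytic enzymes LDHA and PGK1 had -0.67 ± 0.28 and -0.66 ± 0.26 (SD, n = 2). The mean log2 ratios of ADM and VEGF were 2.44 and 0.58, and any part of hypoxia-inducible factors in them was not tested. Limma called 0 genes of these 2 lists over all features. At an unadjusted p under 0.05 it gave 4 higher and 2 lower for ATF4 and CHOP targets and 1 higher and 5 lower for hypoxia targets. The shares of all features were 3.71% higher and 10.8% lower, near which the 2 lower ATF4 and CHOP targets and the 1 higher hypoxia target of 21 each lie.

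**Figure D5:**
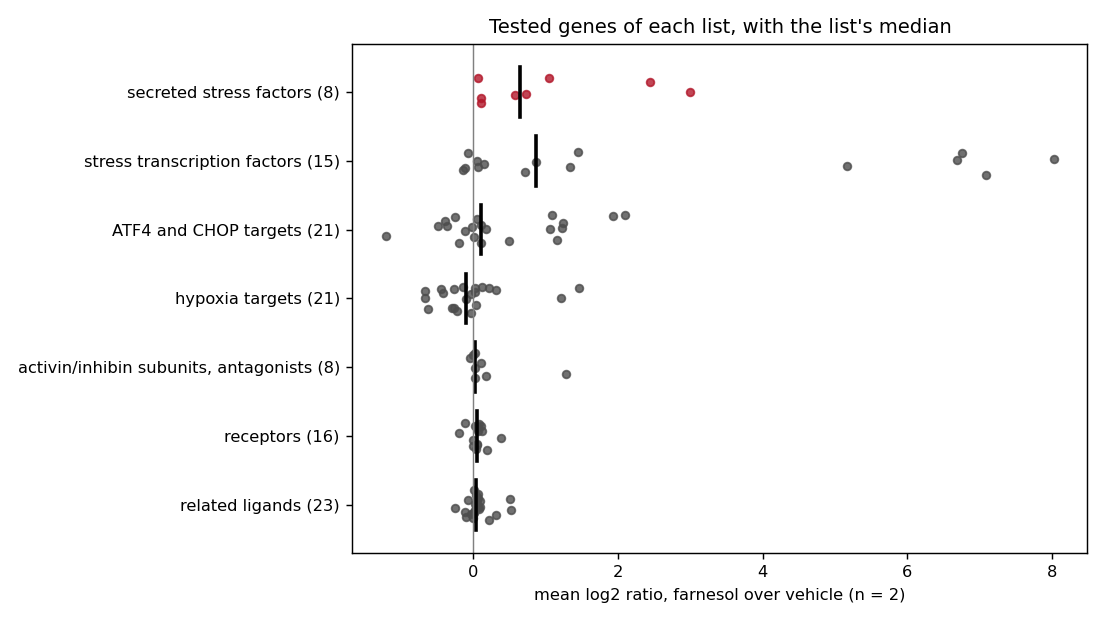
Mean log2 ratio of farnesol over vehicle (x axis, n = 2) of each tested gene, by list (y axis, number of tested genes in brackets), with the list's median as a black bar; points are spread vertically for display. The secreted stress factors have a median of 0.65, the stress transcription factors 0.87 with 5 genes above 5, and the other lists have medians between -0.09 and 0.11.

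The genes whose ratios over the 4 arrays were most like those of GDF15, by the smallest Euclidean distance in log2 ratio among named genes outside the group, were PHLDA1 (0.26), a pleckstrin homology domain protein, NR4A2 (0.33), an orphan nuclear receptor, TNFAIP3 (0.50), the NF-kappaB inhibitor A20, DUSP6 (0.52), an ERK phosphatase, and NFIL3 (0.58), a leucine zipper repressor. Their ratios ran from 3.60 to 3.79 in replicate 1 and from 1.86 to 1.98 in replicate 2. Those most like ADM were IFIT1 (0.28) and IFIT2 (0.74), interferon-induced proteins that bind viral RNA, HES1 (0.40), a repressor downstream of Notch, OASL (0.91), a relative of the oligoadenylate synthetases, and LOC85028 (1.19). Their ratios ran from 1.71 to 2.71 in replicate 1 and from 2.35 to 3.48 in replicate 2. Likeness over 4 arrays from 2 replicates is a description with few points.

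The authors' deposited table lists 7018 probes with a ratio of farnesol over vehicle, and its header names replicate 1. The authors' deposited table holds 8 of the 12 probes, of 5 of the 8 genes, and leaves out the probes of INHBE, FGF21 and STC1 and the VEGF probe A_24_P179400. In the authors' deposited table the ratio of GDF15 is 14.7, that of INHBA 4.45 and that of ADM 4.06. The authors' deposited table gives STC2 ratios of 2.99 and 1.21 for its pair of probes, and VEGF ratios of 3.37, 2.83 and 1.85 for the 3 probes listed. All of these ratios in the authors' deposited table lie above 1, as did the replicate 1 ratios computed here for the same probes. For each of these probes the authors' ratio was the larger one. As log2 values it was 3.873 against 3.831 here for GDF15, 2.155 against 1.478 for INHBA and 1.755 against 1.357 for the VEGF probe A_23_P70398.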

How the data were processed

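Per the labels, RNA of farnesol-treated and vehicle-treated H460 cells was amplified, labelled with Cy3 or Cy5 and hybridised together, with dyes exchanged, in duplicate experiments. Scans were read with Agilent Feature Extraction (8.1.1.1 per the file headers, 8.1 per the labels). The deposited intensity values were mean spot brightness and median local background, uncorrected, per the file headers. The deposited processed intensities were background-subtracted, detrended and dye-normalized, and the deposited log10 ratio (Cy5 over Cy3) came from them, per the file headers. Flags for bright, saturated and outlying spots were deposited too. A further table the authors deposited gives the linear ratio and p-value of selected probes, none with a p-value above 0.001, whose method its header does not name. Its second copy was identical and was not used.

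From these, normalization and tests were run with limma 3.58.1 under R 4.3.3 (files read by data.table, 1.17.8). Background was corrected by normexp (offset 50), and loess normalization of the log ratios was done per array, giving weight 0 to controls and outlying spots. Outlying spots were then dropped and saturated ones kept. Ratios were turned to farnesol over vehicle, spots of a probe and then the 2 arrays of a replicate were averaged, and limma tested the mean of 2 replicates against 0, two-sided, with 1 residual degree of freedom per gene and 1.81 added by moderation. Each ratio pairs a farnesol RNA with its matched vehicle. Intensities per channel were taken after Aquantile normalization. Testing required that each replicate had 1 array or more with the probe well above background in the channel of the same condition. A gene was represented by its brightest tested probe. All arrays were scanned on 1 day and each was its own slide, so neither could serve as a block. The calculation was tested on simulated data.

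All probes of the 8 genes are named. From each of the other gene lists the up to 4 genes with the largest absolute ratio are named, with DDIT3, ATF4 and HIF1A and, for likeness, 5 genes each for GDF15 and ADM. RET, KDR, ADM2 and PSAT1 were added after their values were seen. One gene and one list are not reported here. The genes and lists were chosen with earlier results of these data known. Gene names are as printed in the files. The reference supplied was of the mouse, so no human position or sequence is given.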

Additional observations from a re-analysis of the deposited data

How the results depend on the processing

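Over 10 other settings of the processing and model, each of the 8 genes kept a mean ratio above 0. GDF15 ran from 2.78 to 3.04 (log2), ADM from 2.22 to 2.60, INHBA from 0.77 to 1.62, STC2 from 0.26 to 0.87, VEGF from 0.46 to 0.72, INHBE from 0.05 to 0.17, STC1 from 0.02 to 0.17 and FGF21 from 0.04 to 0.12. The lowest value of STC2 came from the mean of its probes. No gene of the group passed limma's threshold under 9 of these settings. With the 4 arrays and the replicate block as random, added after the data were seen, adjusted p was 0.00635 for GDF15 (2.99), 0.00396 for ADM (2.44), 0.0225 for INHBA (1.05) and 0.0313 for VEGF (0.58), so 4 genes passed, among 2894 features. This fit counts the dye-swapped arrays as partly independent, with 1 correlation of 0.549 for all features. A dye term beside the block could not be fitted. No other paired analysis was possible because each ratio is already within a pair. Over 12 other settings, those with a replicate left out included, the median log2 ratio of the hypoxia targets ran from -0.18 to -0.03. That of the receptors ran from 0.01 to 0.10, of the activin list from 0.01 to 0.09 and of the related ligands from 0.01 to 0.11. It ran from -0.01 to 0.26 for ATF4 and CHOP targets, 0.66 to 1.59 for stress transcription factors and 0.31 to 1.06 for the 8 genes.

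The number of features past limma's threshold, 3 here, was 65 with a normexp offset of 0, 60 with the scanner's processed signals, 25 with median centring and 0 without background correction. Features at least 2-fold higher in both replicates numbered 283 with offset 0 and 294 with processed signals. INHBA was then among the higher ones in both settings, which made 3 of the 8 genes. Those lower numbered 119 with offset 0, 151 with processed signals and 136 with median centring. With 1 replicate left out there is no test. The remaining replicate then had 422 to 500 features at least 2-fold higher and 130 to 157 lower, and 2 to 4 of the 8 genes at least 2-fold higher. Without replicate 2 those were GDF15, ADM, INHBA and STC2, and without replicate 1 GDF15 and ADM. The intensities of FGF21 and the vehicle intensities of INHBA lay within a factor of 2 of the lowest ones called well above background, which limits their ratios. In replicate 2 the farnesol intensities of the STC2 probe A_23_P416395 and the vehicle intensities of the VEGF probe A_23_P70398 were similarly close to background. The cause of these shifts was not tested.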

Other observations

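Of the 188 features at least 2-fold higher in both replicates, 141 (75.0%) had the larger ratio in replicate 1 and 47 in replicate 2, while over all 28594 features 48.8% had the larger ratio in replicate 1. GDF15 is among the 23 of these whose replicate 1 ratio was above that of replicate 2 by at least 1.68. ADM is among the 5 whose replicate 2 ratio was above that of replicate 1 by at least 1.08. The counts rest on 2 experiments, and no test of the difference between the experiments was made.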
